A study of Mus musculus with 15 samples.

Results

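The 39 Hox genes of the mouse were examined, which form the Hoxa, Hoxb, Hoxc and Hoxd clusters on chromosomes 6, 11, 15 and 2. They were chosen by symbol alone, as the protein-coding genes named Hoxa, Hoxb, Hoxc or Hoxd plus a number among 22254 protein-coding genes on chromosomes 1 to 19 and X (GENCODE M1, build NCBIM37, which is mm9). Hoxa contributed 11 genes, Hoxb 10, Hoxc 9 and Hoxd 9. The study mapped H3K4me1, a histone mark of primed and active regulatory DNA, and H3K27ac, a mark of active promoters and enhancers, by ChIP-seq in 3 states of mouse pluripotent cells of strain 129SV, as 15 samples, which are 2 for every mark in each state and an input for each state. ESCs were the J1 line, grown in serum medium with LIF and the 2i inhibitors CHIR99021 and PD0325901, on inactivated mouse embryonic fibroblasts (MEFs) or on gelatin. Both EPSC states were obtained in the study by converting ESCs, so they were not separately derived lines. D-EPSCs, labelled Deng_EPS, were kept in N2B27 with KSR, LIF, CHIR99021, dimethindene maleate and minocycline hydrochloride. L-EPSCs, labelled Liu_EPS, were kept on feeders or gelatin with KSR, LIF, CHIR99021, PD0325901, A-419259, XAV939, JNK inhibitor VIII and SB203580. LIF and CHIR99021 were shared by all 3 media, and by the study's methods both EPSC states were kept without feeders for the passages before the assays. The sources do not say whether the ESCs assayed were grown on feeders. The data were 1 list of broad peaks per mark and state. A list gives positions only, so read depth is unknown, no difference between states has a replicate check, and no test or error is attached to the values below.

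Hox genes encode homeodomain transcription factors that give cells their position along the head-to-tail axis, and within a cluster they lie in the order in which they are switched on, from the 3′ members that pattern the hindbrain to the 5′ members that pattern the posterior trunk, limbs and genitalia. In pluripotent cells the clusters are largely silent, held by Polycomb proteins with activating and repressive histone marks side by side. Retinoic acid is the classical inducer of the 3′ members.

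The widest H3K27ac peak in the Hox clusters ran from the last exon of Hoxc13 towards Hoxc12, and neighbouring stretches there on which the states differed are shown as reference sequence, with every CG dinucleotide in capitals. Each is the central 300 bases of its stretch, and neither of these windows overlapped an exon. The stretch acetylated in ESCs only is shown from chr15:102759504-102759803 (mm9, plus strand) and the adjoining stretch shared with L-EPSCs from chr15:102762063-102762362 (plus strand).
Hoxc13 to Hoxc12, ESCs only: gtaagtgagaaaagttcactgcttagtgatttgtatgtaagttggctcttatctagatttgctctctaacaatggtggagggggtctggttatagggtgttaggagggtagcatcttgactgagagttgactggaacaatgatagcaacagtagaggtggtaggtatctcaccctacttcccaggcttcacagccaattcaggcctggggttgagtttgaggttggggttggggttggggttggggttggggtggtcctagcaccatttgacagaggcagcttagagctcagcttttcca
Hoxc13 to Hoxc12, ESCs and L-EPSCs: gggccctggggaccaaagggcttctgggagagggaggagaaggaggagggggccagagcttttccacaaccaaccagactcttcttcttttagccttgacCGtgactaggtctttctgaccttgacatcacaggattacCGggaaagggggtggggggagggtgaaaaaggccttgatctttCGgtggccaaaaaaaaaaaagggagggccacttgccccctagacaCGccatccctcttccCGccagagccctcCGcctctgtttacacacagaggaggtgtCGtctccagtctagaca

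The ESC-only sequence held 0 CG dinucleotides in 300 bases, and that of ESCs and L-EPSCs held 7. Their GC contents were 48.7% and 56.3%.

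From the first to the last gene, the 4 clusters spanned 492 kb, of which H3K4me1 peaks covered 231 kb in the ESC list (47.0%), 202 kb in the D-EPSC list (41.1%) and 169 kb in the L-EPSC list (34.3%). Over all 20 chromosomes the 3 lists covered 8.38%, 7.10% and 6.56%, so the clusters were covered more densely than the genome in each state. H3K27ac covered 30.8 kb in the ESC list (6.26%, 18 peaks), 1.66 kb in the D-EPSC list (0.337%, 1 peak) and 10.3 kb in the L-EPSC list (2.10%, 9 peaks), where the whole lists covered 4.07%, 1.68% and 1.30% of the genome. The share of the clusters under H3K27ac was therefore above that of the genome in ESCs and L-EPSCs and below it in D-EPSCs.

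With 50 kb added on each side (892 kb in all), H3K4me1 covered 307 kb, 264 kb and 214 kb in ESCs, D-EPSCs and L-EPSCs. As log2 ratios of the covered bases, the values were -0.21 for D-EPSCs over ESCs and -0.52 for L-EPSCs over ESCs, beside -0.24 and -0.35 for the whole lists. For H3K27ac the widened clusters held 41.6 kb, 4.01 kb and 14.0 kb, which gave log2 ratios of -3.38 for D-EPSCs over ESCs, -1.57 for L-EPSCs over ESCs and 1.81 for L-EPSCs over D-EPSCs. The whole H3K27ac lists gave -1.27, -1.65 and -0.37. Hox H3K27ac was thus further below ESCs in D-EPSCs than the list as a whole, it was lower in L-EPSCs by about as much as the list as deposited, and it was higher in L-EPSCs than in D-EPSCs although the L-EPSC list was the shorter. The D-EPSC ratio rested on 4 peaks, all in the widened Hoxa cluster, and the ratios moved with the widening of the clusters: without it the 3 ratios were -4.21, -1.57 and 2.64, and with 100 kb they were -1.59, -1.15 and 0.45. With lists of equal covered bases they were -2.20, -0.21 and 1.99, and the H3K4me1 ratio of D-EPSCs over ESCs turned from -0.21 to 0.10.

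**Figure D1:**
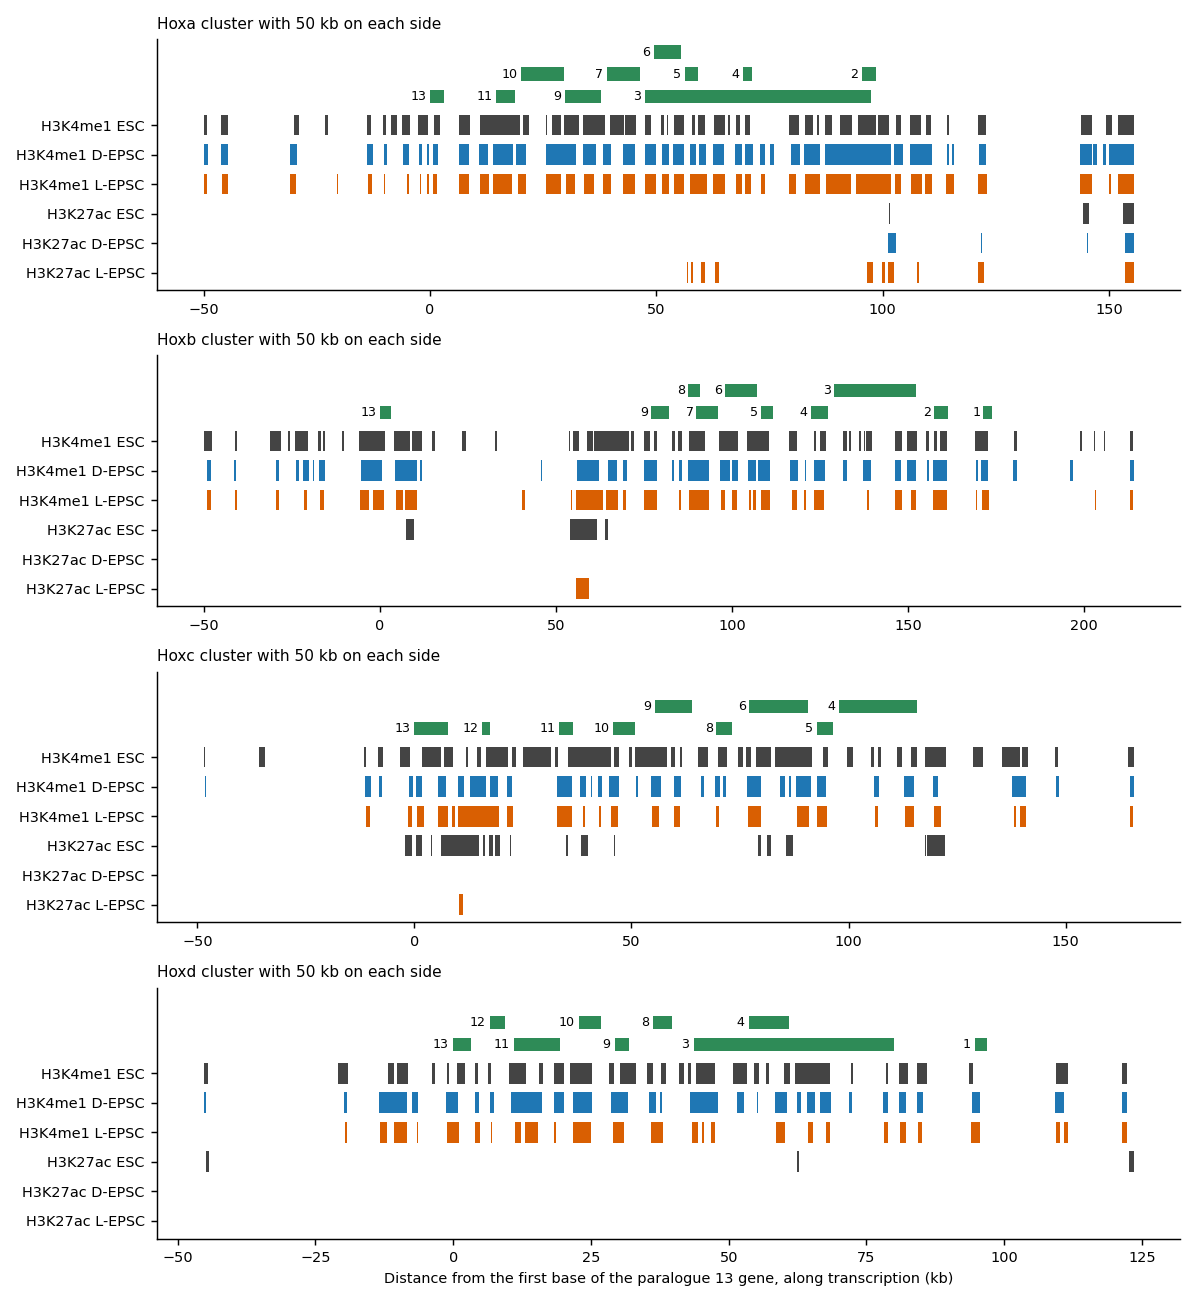
Peaks along the 4 Hox clusters, with distance from the first base of the paralogue 13 gene in kb on the horizontal axis and a row for each mark and state. Green bars are Hox genes with their paralogue numbers. H3K4me1 runs through every cluster in every state, while H3K27ac lies mainly in Hoxc and Hoxb in ESCs and mainly in Hoxa in L-EPSCs.

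The clusters differed from each other in where H3K27ac lay. In the gene part of Hoxc, H3K27ac covered 19.3 kb in the ESC list, 0 kb in the D-EPSC list and 0.942 kb in the L-EPSC list. In Hoxb the values were 10.7 kb, 0 kb and 3.82 kb. Hoxa was the reverse, at 0.393 kb in the ESC list, 1.66 kb in the D-EPSC list and 5.58 kb in the L-EPSC list. Hoxd had 0.339 kb in ESCs, a peak in an intron of Hoxd3, and none in either EPSC state. Of all bases in the gene parts that were acetylated in any state (36.4 kb), 70.5% were acetylated in ESCs only, 11.9% in L-EPSCs only, 13.1% in ESCs and L-EPSCs, and 1.1% in D-EPSCs only.

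**Figure D2:**
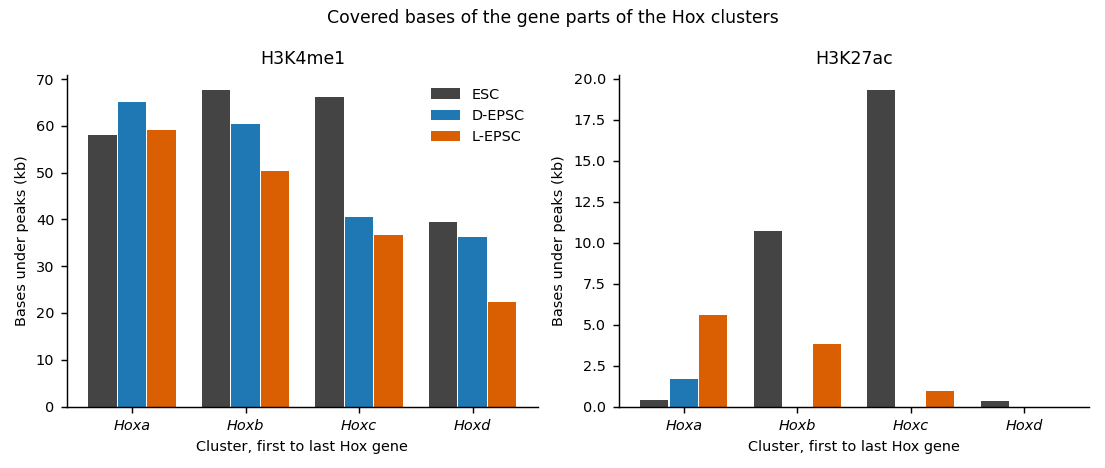
Bases under peaks (kb, bars from 0) between the first and the last gene of each cluster, for H3K4me1 on the left and H3K27ac on the right, with a bar for each state. H3K27ac in Hoxc stands at 19.3 kb in ESCs against 0.942 kb in L-EPSCs, and in Hoxa at 0.393 kb in ESCs against 5.58 kb in L-EPSCs.

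Hoxa2, Hoxa3 and Hoxa5 carried H3K27ac in L-EPSCs only. Hoxa2, a regulator of pharyngeal arch and hindbrain identity, had 1.93 kb of H3K27ac in its gene span widened by 2 kb on each side in L-EPSCs and 0 kb in ESCs and D-EPSCs. Hoxa3, needed for thymus and parathyroid formation, had 3.69 kb in L-EPSCs and 0 kb in the other states. Hoxa5, which acts in the lung and the cervical and thoracic skeleton, had 1.51 kb in L-EPSCs and 0 kb elsewhere. Because the annotated span of Hoxa3 reaches over Hoxa4, Hoxa5 and Hoxa6 and into Hoxa2, these values share bases, and 27 of the 39 Hox genes share part of their widened span with a neighbour. The 6 stretches acetylated in L-EPSCs only in the gene part of Hoxa were 308 to 1299 bp wide. The widest, at chr6:52112965-52114263, lay over exons of Hoxa2, and the 764 bp stretch at chr6:52150165-52150928 lay over an exon of Hoxa3. The 2 nearest to Hoxa5, at chr6:52152719-52153155 and chr6:52153846-52154153, overlapped its exons. All but the last of these were under H3K4me1 in L-EPSCs over their whole length.

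The Hoxc genes at the 5′ end carried most of the H3K27ac in ESCs. Hoxc13, which acts in hair follicles and nails, had 6.68 kb of H3K27ac in its widened span in ESCs and 0 kb in D-EPSCs and L-EPSCs. Hoxc12, its 3′ neighbour, had 3.69 kb in ESCs and 0 kb in both EPSC states, which was 63.1% of its widened span, the largest share among the 39 genes in any H3K27ac list. Hoxc10, a gene of lumbar motor neurons and the hindlimb, had 0.291 kb in ESCs and none in EPSCs. Further 3′, Hoxc6, a gene of the thoracic region, had 3.58 kb in ESCs and none in EPSCs. With lists of equal covered bases, in which only the widest ESC peaks stayed, the ESC values were 3.68 kb for Hoxc13, 1.14 kb for Hoxc12 and 0 kb for Hoxc10 and Hoxc6. The widest H3K27ac peak of the 4 gene parts was the 8765 bp ESC peak at chr15:102757567-102766331, which ran from the last exon of Hoxc13 to 857 bp before the first base of Hoxc12. The L-EPSC peak of the cluster, chr15:102761742-102762683, lay within it, and no D-EPSC peak did. A 4217 bp peak lay beyond Hoxc4, in the 3′ flank, and was present in ESCs only.

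In Hoxb no gene had H3K27ac in its widened span in any state. The acetylated bases lay in the long interval between Hoxb13, which acts in the tail and the prostate, and Hoxb9, a gene of the thoracic skeleton. A 7486 bp ESC peak at chr11:96109706-96117191 and a 3819 bp L-EPSC peak within it covered the start of the protein-coding gene Gm53. The near edges of these peaks lay 15580 bp and 17717 bp upstream of the first base of Hoxb9. The other 2 ESC peaks of the cluster were 2248 bp, over the noncoding transcript Gm11538, and 978 bp, in an intron of Gm53.

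Counted over genes, H3K27ac was rare at Hox genes in every state. A peak touched the widened span of 9 of the 39 Hox genes in the ESC list, 1 in the D-EPSC list and 5 in the L-EPSC list, where 52.9%, 47.6% and 40.8% of all protein-coding genes had a peak. Within 1 kb of the first base, 4, 1 and 2 Hox genes had a peak, against 35.7%, 35.3% and 28.8% of all genes. The first base itself lay under a peak for 0, 1 and 0 Hox genes, against 21.5%, 24.4% and 17.4% of all genes. H3K27ac was also rare at 56 genes of other homeobox families, such as Pax, Lhx, Nkx, Dlx and Otx. A peak touched the widened span of 17.9%, 8.93% and 7.14% of these, beside 23.1%, 2.56% and 12.8% of Hox genes. Their first base lay under a peak for 0 genes in each state. With a call of lower for at most 1/2 of the covered bases and of higher for at least 2 times as many, and at least 500 bp in the higher state, 4 Hox genes were lower in D-EPSCs than in ESCs (Hoxc6, Hoxc11, Hoxc12 and Hoxc13), where 28.5% of all genes were. These 4 were the only Hox genes with at least 500 bp of H3K27ac in ESCs, so no other could be called lower against ESCs. In the other direction 1 Hox gene was higher, where 4.13% of all genes were. For L-EPSCs against ESCs the same 4 Hoxc genes were lower (36.6% of all genes) and 4 Hox genes, Hoxa2, Hoxa3 and Hoxa5 among them, were higher (1.87% of all genes). For L-EPSCs against D-EPSCs 0 Hox genes were lower (15.6% of all genes) and Hoxa2, Hoxa3 and Hoxa5 were higher (2.83% of all genes). The Hoxa genes called higher in L-EPSCs are neighbours whose windows overlap, and the comparisons share their lists, so these counts are not independent of each other.

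**Figure D3:**
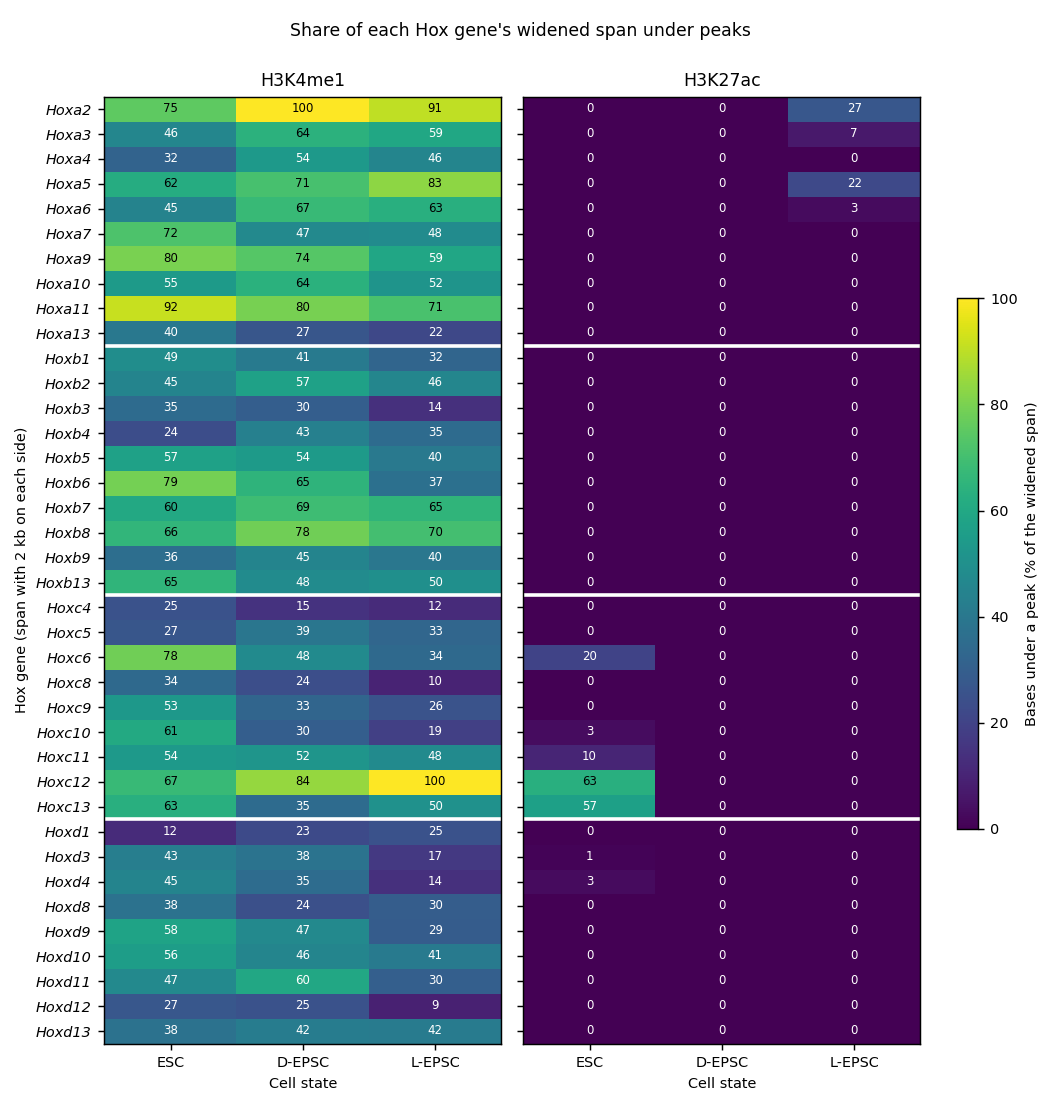
Share of the widened span of each Hox gene shown under H3K4me1 (left) and H3K27ac (right) peaks, in percent, with genes in rows by cluster and states in columns. H3K4me1 is present in every row and state shown. In the rows shown, H3K27ac above 0 is limited to Hoxa in L-EPSCs and to Hoxc and Hoxd in ESCs.

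H3K4me1, by contrast, touched every member. All 39 Hox genes had a peak in the widened span in each of the 3 states, where 73.5% of all genes had one in the ESC list, 76.2% in the D-EPSC list and 77.1% in the L-EPSC list. The median Hox gene had 50.1% of its widened span covered in the ESC list (range 12.4% to 91.6%), 47.2% in the D-EPSC list (14.8% to 100%) and 40.4% in the L-EPSC list (9.07% to 100%), against medians of 12.3%, 12.1% and 10.5% over all genes. For the 56 genes of other homeobox families the medians were 31.5%, 51.9% and 41.4%, above those of Hox genes in both EPSC states. High H3K4me1 shares were thus not particular to Hox genes. Hox spans were also shorter, with a median widened span of 8058 bases against 19488 over all genes. Equal covered bases thus make a larger share of them. By cluster the medians in ESCs, D-EPSCs and L-EPSCs were 54.6%, 66.8% and 59.1% for Hoxa, 53.1%, 51.4% and 40.0% for Hoxb, 54.1%, 34.9% and 33.1% for Hoxc, and 42.7%, 37.9% and 29.1% for Hoxd. Hoxa was the only cluster whose median in both EPSC states was above that in ESCs.

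The bases behind these shares were exchanged more in Hoxc than in Hoxa. In the gene part of Hoxa 58.4% of the bases under H3K4me1 in any state were covered in all 3, against 46.6% in Hoxb, 24.9% in Hoxd and 18.0% in Hoxc. In Hoxc 46.4% of such bases were covered in ESCs only and 19.2% in both EPSC states but not in ESCs. The total for Hoxc was 66.2 kb in the ESC list, 40.6 kb in the D-EPSC list and 36.6 kb in the L-EPSC list, and that for Hoxd 39.5 kb, 36.2 kb and 22.4 kb. Hoxb had 67.6 kb, 60.4 kb and 50.4 kb, and Hoxa 58.0 kb, 65.2 kb and 59.1 kb. The widest H3K4me1 peak of the gene parts was a D-EPSC peak of 14.5 kb in Hoxa, whereas the widest was 9.87 kb in ESCs and 9.53 kb in L-EPSCs, both in Hoxc.

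The gene with the largest H3K4me1 difference between ESCs and the mean of the EPSC states was named in each cluster. In Hoxa it was Hoxa3, with 24.7 kb in the ESC list, 34.6 kb in the D-EPSC list and 32.1 kb in the L-EPSC list over a widened span of 54.0 kb. In Hoxb it was Hoxb6, a gene of the thoracic skeleton, with 10.3 kb, 8.54 kb and 4.86 kb. In Hoxc it was Hoxc6, with 13.8 kb, 8.46 kb and 5.99 kb. In Hoxd it was Hoxd3, a gene of the cervical skeleton, with 17.2 kb, 15.3 kb and 6.69 kb. Hoxa3 thus had more covered bases in both EPSC states than in ESCs, and the other 3 had fewer, with the lowest value in L-EPSCs in each case. Hoxa5 had 4.22 kb, 4.85 kb and 5.66 kb in ESCs, D-EPSCs and L-EPSCs, Hoxc10 had 5.52 kb, 2.73 kb and 1.71 kb, Hoxc12 had 3.93 kb, 4.93 kb and 5.85 kb, and Hoxc13 had 7.39 kb, 4.09 kb and 5.90 kb. Hoxc12, whose H3K27ac was absent from both EPSC lists, was covered by H3K4me1 over 100% of its widened span in L-EPSCs.

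By the 2-fold rule, 1 Hox gene (Hoxc10) had less H3K4me1 in D-EPSCs than in ESCs (5.01% of all genes) and 0 had more (8.86% of all genes). In L-EPSCs against ESCs 10 Hox genes were lower, namely Hoxb3, Hoxb6, Hoxc4, Hoxc6, Hoxc8, Hoxc9, Hoxc10, Hoxd3, Hoxd4 and Hoxd12, where 9.74% of all genes were. Only Hoxd1, which acts in pain-sensing neurons, was higher, with 0.764 kb in the ESC list, 1.39 kb in the D-EPSC list and 1.56 kb in the L-EPSC list, where 9.00% of all genes were called higher. Both sets of counts against ESCs depended on the bases compared. When only the widest peaks of each list were kept, up to the covered bases of the shortest list, 0 genes were lower and 10 higher in D-EPSCs, and 4 lower and 9 higher in L-EPSCs. Within the gene spans alone, without the 2 kb, 1 was lower and 6 higher in D-EPSCs, and 5 lower and 6 higher in L-EPSCs. In L-EPSCs against D-EPSCs 5 were lower (Hoxb3, Hoxc8, Hoxd3, Hoxd4 and Hoxd12), where 4.13% of all genes were, and 0 were higher, where 2.85% of all genes were. No Hoxa gene was among those called. Whatever the size of the difference, 32 of the 39 Hox genes had fewer H3K4me1 bases in L-EPSCs than in D-EPSCs and 7 had more, where 50.5% of all genes had fewer and 27.6% more. For D-EPSCs against ESCs the split was 22 fewer and 17 more, where 40.3% of all genes had fewer and 37.2% more.

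At start sites the order of the states was another. The first base lay under H3K4me1 for 15 of 39 Hox genes in the ESC list, 29 in the D-EPSC list and 23 in the L-EPSC list, against 11.4%, 26.2% and 31.8% of all genes. Within 1 kb of the first base a peak was present for 35, 37 and 35 Hox genes, against 57.5%, 67.1% and 68.0% of all genes. Across the 39 genes, 10 had the first base under a peak in all 3 states (Hoxa2, Hoxa3, Hoxa11, Hoxb1, Hoxb7, Hoxb13, Hoxc6, Hoxc9, Hoxd8 and Hoxd10), and 13 in both EPSC states but not in ESCs (Hoxa6, Hoxa7, Hoxa10, Hoxb2, Hoxb9, Hoxc8, Hoxc10, Hoxc11, Hoxc12, Hoxd1, Hoxd3, Hoxd9 and Hoxd13). Hoxa9, Hoxb5, Hoxb6 and Hoxd11 had it in ESCs and D-EPSCs, Hoxb8 and Hoxc5 in D-EPSCs only, and Hoxd12 in ESCs only. For the remaining 9, such as Hoxa4, Hoxa5, Hoxb4 and Hoxc13, it lay under no H3K4me1 peak. No Hox gene had it in L-EPSCs only or in ESCs and L-EPSCs.

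The class covered in both EPSC states but not in ESCs made up 33.3% of the Hox genes, 51.8% of 56 genes of other homeobox families (such as Pax, Lhx, Nkx, Dlx and Otx) and 14.7% of all genes. A median of 4.40 CG dinucleotides per 100 bases lay within 1 kb of the first base in this class, with a range of 2.3 to 8.0. In the class covered in all states the median was 3.72 (2.65 to 8.70), and in that covered in none 5.05 (1.15 to 9.70), so these ranges overlapped. As examples, the 120 bases before the first base are printed for Hoxd13, a gene of digit formation, and Hoxa10, which acts in the uterus and the lumbar skeleton, both covered in EPSC states only, and for Hoxd12, covered in ESCs only, each on the strand of its gene and with CG in capitals.
Hoxd13, chr2:74506247-74506366: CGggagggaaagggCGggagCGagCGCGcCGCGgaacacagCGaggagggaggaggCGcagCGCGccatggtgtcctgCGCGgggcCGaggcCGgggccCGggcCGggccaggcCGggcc
Hoxa10, chr6:52190854-52190973: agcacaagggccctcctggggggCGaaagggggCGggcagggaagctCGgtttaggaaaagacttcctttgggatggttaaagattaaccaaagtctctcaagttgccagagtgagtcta
Hoxd12, chr2:74512866-74512985: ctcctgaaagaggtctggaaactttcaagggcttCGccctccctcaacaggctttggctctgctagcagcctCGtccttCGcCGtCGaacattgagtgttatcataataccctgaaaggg

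These windows held 18, 3 and 5 CG dinucleotides, so Hoxd13 and Hoxa10, with the same pattern of H3K4me1, differed in CG content.

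Around the start site H3K4me1 had a different shape in ESCs. At 2 kb upstream, 64.1% of Hox genes were under a peak in the ESC list, 46.2% in the D-EPSC list and 38.5% in the L-EPSC list. At the first base the shares were 38.5%, 74.4% and 59.0%, and at 500 bp downstream 46.2%, 76.9% and 74.4%. ESCs thus had a dip at the start site with higher shares on both sides, and both EPSC states had their high shares at or just after it. The 56 other homeobox genes had a like shape. In the ESC list 51.8% of them were covered 500 bp upstream, 26.8% at the first base and 46.4% at 1 kb downstream. At the first base and 500 bp downstream, D-EPSCs had 76.8% and 87.5% and L-EPSCs had 80.4% and 87.5%. Over all protein-coding genes each state had a dip, to 11.4% in the ESC list, 26.2% in the D-EPSC list and 31.8% in the L-EPSC list at the first base, from 34.9%, 37.8% and 34.5% at 1 kb upstream. The all-gene shares at 500 bp upstream were 28.4%, 43.0% and 45.5%, and at 1 kb downstream 30.6%, 47.0% and 49.2%.

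**Figure D4:**
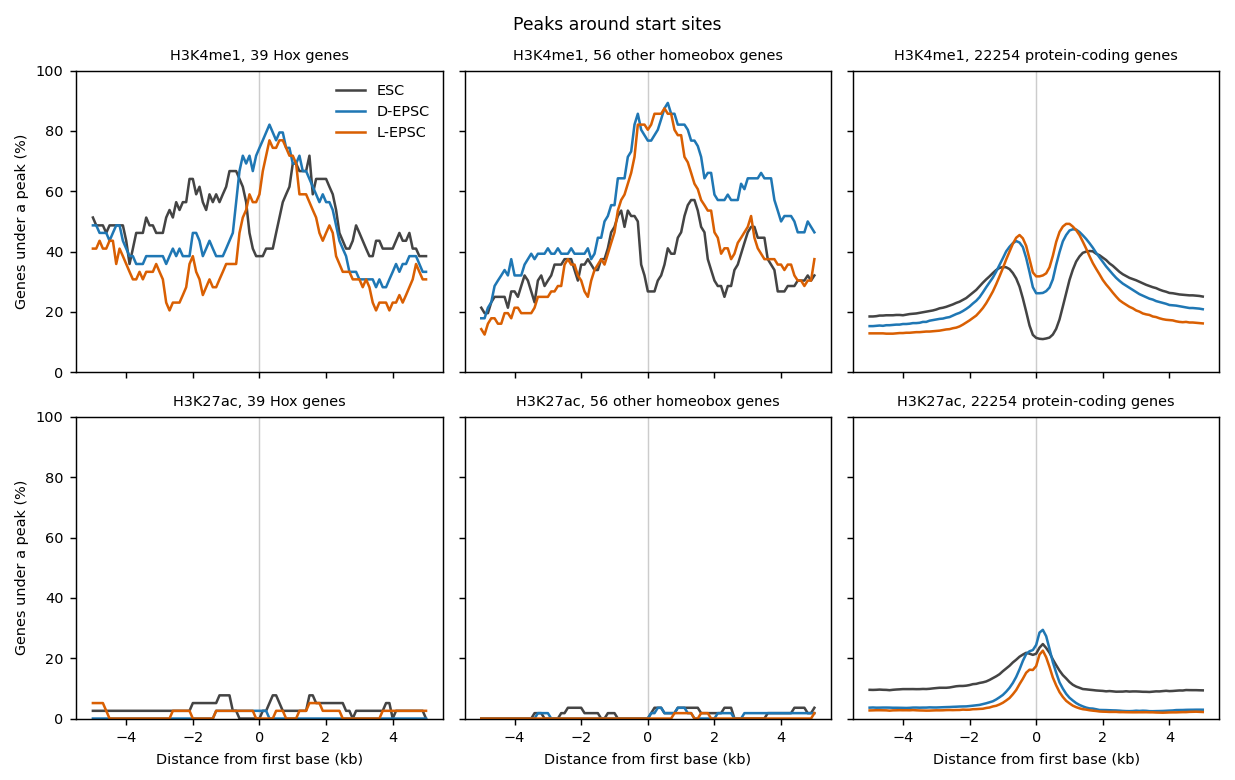
Share of genes under a peak (%) by distance from the first base in kb, along transcription, for H3K4me1 (top) and H3K27ac (bottom) in Hox genes, other homeobox genes and all protein-coding genes, with a line for each state. At the first base of Hox genes H3K4me1 stands at 38.5% in the ESC list, 74.4% in the D-EPSC list and 59.0% in the L-EPSC list, and H3K27ac stays near 0 in all 3.

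By position in the clusters, paralogues 1 to 3 had median H3K4me1 shares of 45.4%, 49.1% and 39.2% in ESCs, D-EPSCs and L-EPSCs (8 genes), paralogues 4 to 8 had 45.0%, 48.0% and 37.1% (15 genes), and paralogues 9 to 13 had 55.2%, 46.4% and 41.4% (16 genes). The 5′ group was thus the highest of the 3 in ESCs and L-EPSCs, and the ranges within each group were wide, from 9.07% to 100% in L-EPSCs for paralogues 9 to 13. H3K27ac touched 2, 1 and 3 of the 8 genes of paralogues 1 to 3, 3, 0 and 2 of the 15 of paralogues 4 to 8, and 4, 0 and 0 of the 16 of paralogues 9 to 13 in ESCs, D-EPSCs and L-EPSCs. Over all genes the shares were 52.9%, 47.6% and 40.8%. The 4 genes of paralogues 9 to 13 were all neighbours in Hoxc, and every gene touched in an EPSC state was in Hoxa. Position could thus not be told apart from cluster. The flanks were less covered by H3K4me1 than the gene parts. It covered 16.9%, 14.7% and 11.2% of the 3′ flanks and 20.8%, 16.3% and 11.3% of the 5′ flanks in the same order. For H3K27ac in D-EPSCs the 3′ flanks were more covered than the gene parts, at 1.18% against 0.337%, and the 5′ flanks had 0%. The 3 peaks of the 3′ flanks all lay beside Hoxa.

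Both marks overlapped in part. Of the bases under ESC H3K27ac in the gene parts, 59.1% were under H3K4me1 in the ESC list, 65.1% in the D-EPSC list and 74.2% in the L-EPSC list. Of the bases under L-EPSC H3K27ac, 90.9% were under L-EPSC H3K4me1, and of the 1.66 kb under D-EPSC H3K27ac 51.4% were under D-EPSC H3K4me1.

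The clusters also hold microRNA genes, among them those of 2 seed families, miR-10, which lies beside Hoxb4 and Hoxd4, and miR-196, which targets Hox transcripts. Their mature 5p sequences (RefSeq, GRCm38.p6) are given with bases 2 to 8, the seed, in capitals.
miR-10a-5p: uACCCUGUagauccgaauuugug
miR-10b-5p: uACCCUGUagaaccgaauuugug
miR-196a-5p: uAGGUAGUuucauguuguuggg
miR-196b-5p: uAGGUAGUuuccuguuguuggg

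No hairpin of the 5 genes (Mir10a, Mir10b, Mir196a-1, Mir196a-2 and Mir196b) had H3K27ac within 1 kb in any state. H3K4me1 lay within 1 kb of all 5 in ESCs and D-EPSCs and of all but Mir196a-2 in L-EPSCs. With 2 kb on each side, Mir196a-2 (chr15:102803772-102803881, between Hoxc10 and Hoxc9) had 3.46 kb of H3K4me1 in the ESC list, 0.317 kb in the D-EPSC list and 0 kb in the L-EPSC list. Mir10a (chr11:96178479-96178588, within the Hoxb4 span) had 0.635 kb, 2.08 kb and 1.60 kb, and Mir10b (chr2:74564127-74564194, within the Hoxd4 span) 0.514 kb, 1.44 kb and 1.20 kb. Mir196a-1 (chr11:96126478-96126579) had 2.82 kb, 1.01 kb and 0.868 kb, and Mir196b (chr6:52180080-52180164) had 3.35 kb, 3.56 kb and 2.32 kb. The miR-10 genes thus had more H3K4me1 in both EPSC states than in ESCs, Mir196a-1 and Mir196a-2 had less, and Mir196b had more in D-EPSCs and less in L-EPSCs. A further microRNA gene, Mir615 in Hoxc (chr15:102845341-102845432), had 1.04 kb, 2.23 kb and 2.23 kb, and its hairpin lay under H3K4me1 in both EPSC states and not in ESCs.

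Direct repeats bound by retinoic acid receptors were searched as AGGTCA or AGTTCA or GGGTCA or GGTTCA, a spacer of 5 bases and a further such half-site, on both strands. The widened clusters held 9 matches, of which 4, 5 and 5 lay under H3K4me1 in ESCs, D-EPSCs and L-EPSCs, and 0, 0 and 1 under H3K27ac. H3K4me1 covered 34.4%, 29.6% and 24.0% of the widened clusters in the same order, and H3K27ac 4.67%, 0.449% and 1.57%. Whether matches lay under peaks more often than other bases was not tested. No Hox gene had a match within 1 kb of its first base, against 0.580% of all genes (129 of 22254). A match is a run of letters and does not show that a receptor was bound.

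Related genes outside the clusters were read with the same windows. Among 13 ParaHox and other Hox-like homeobox genes, which share ancestry with the clusters, the first base lay under H3K4me1 for 8 in ESCs and for all 13 in both EPSC states. H3K27ac touched 3, 2 and 1 of them. Cdx1, a regulator of Hox genes that answers to retinoic acid, had 2.81 kb of H3K27ac in ESCs and 0 kb in both EPSC states. Evx2, the neighbour of Hoxd13, had 3.08 kb, 6.27 kb and 3.67 kb of H3K4me1 in ESCs, D-EPSCs and L-EPSCs and no H3K27ac. Of 9 Hox cofactors of the Pbx, Meis and Pknox families, all 9 had H3K4me1 in every state and 8 had H3K27ac in every state. Of all genes 52.9%, 47.6% and 40.8% had H3K27ac in the widened span in ESCs, D-EPSCs and L-EPSCs. The cofactor spans were long, with a median of 142529 bases against 19488 over all genes, which makes a touch likelier. The first base lay under H3K27ac for 1, 1 and 0 cofactors, against 21.5%, 24.4% and 17.4% of all genes. By the 2-fold rule, 3 cofactors had less H3K27ac in D-EPSCs than in ESCs (28.5% of all genes) and 1 had more (4.13%), and in L-EPSCs 5 had less (36.6%) and 0 had more (1.87%). Of 11 regulators of Hox transcription, 4 had less H3K27ac in D-EPSCs than in ESCs and 2 had more, and 5 had less and 1 had more in L-EPSCs, beside the same shares of all genes. The retinoic acid receptor genes Rara and Rarg went from 27.6 kb and 21.6 kb of H3K27ac in ESCs to 9.33 kb and 7.39 kb in D-EPSCs and 8.97 kb and 6.79 kb in L-EPSCs, whereas Rarb had 0.505 kb, 3.67 kb and 1.55 kb. The whole H3K27ac lists shrank too, from 4.07% of the genome in ESCs to 1.68% in D-EPSCs and 1.30% in L-EPSCs. Covered width is not signal or expression. The paper reported active histone marks at the Rara and Rarg promoters and more transcript of both in EPSCs, and counted Rara among its EPSC signature genes. Kmt2a, listed as Mll1, which encodes a methyltransferase that maintains Hox expression, had 1.76 kb, 6.95 kb and 1.56 kb of H3K27ac.

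All 8 pluripotency markers had H3K27ac in every state, with summed covered bases of 111 kb in the ESC list, 73.8 kb in the D-EPSC list and 80.5 kb in the L-EPSC list. Of 7 differentiation markers 0, 1 and 0 had any. Of 12 fibroblast markers, looked at because ESCs could be grown on MEFs, H3K27ac touched 2 in the ESC list, 1 in the D-EPSC list and 1 in the L-EPSC list, with sums of 4.12 kb, 0.521 kb and 0.476 kb. Most of the ESC sum was Col1a1, with 3.89 kb in ESCs and 0 kb in both EPSC states, while Col3a1, Dcn and Lum had no covered base in any of the 6 lists. Fbn1, the other fibroblast marker with H3K27ac, went the other way, with 0.230 kb, 0.521 kb and 0.476 kb. The excess of Col1a1 in ESCs went the same way as that of the Hoxc genes, and its part in the result was not tested. That direction was common, as 44.8% of all genes had fewer H3K27ac bases in D-EPSCs than in ESCs and 12.4% more. In L-EPSCs 48.9% had fewer and 6.44% more.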

How the data were processed

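According to the study's methods and the submitters' processing notes, the authors aligned paired reads to mm9 with Bowtie2 2.3.5, sorted them with SAMtools 1.10 and called broad MACS peaks against the input. Each deposited file lists peaks by chromosome, start, end and name, with 1 list per mark and state. The peak threshold, and whether the 2 samples of a group were pooled before calling, are not given in the sources used here. Each list was assigned by the state and mark in its name, which match the sample labels.

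GENCODE M1 has 22350 protein-coding entries on chromosomes 1 to 19 and X. Overlapping entries of the same symbol and strand were merged, which left 22254 genes, and the 2 entries of Hoxa3 became 1. Covered bases and peaks (minimum overlap 1 bp) were counted per gene span widened by 2 kb and per cluster widened by 50 kb, with Python 3.11.15 and numpy 2.4.6. The counting was tested on simulated lists and made 0 errors in 4000 windows. A gene was called lower or higher at a 2-fold difference in covered bases, with 500 bp or more in the higher state. With 1 list per group, no test was run. Named in full were Hox genes with H3K27ac within 1 kb of the first base in any state and, per cluster, the gene with the largest H3K4me1 difference between ESCs and the mean of both EPSCs. The stretches named were taken from the 12 widest H3K27ac stretches of the gene parts, and the others were added after their values were seen. Of the genes and stretches that this rule names, 1 gene and the stretches that need it, and 1 further stretch, are not reported here, and the gene still counts among the 39. The members, lists and rules were chosen with earlier results of these data known. Of the listed genes 2 were matched by an older symbol and 1 was not analysed here. The alternatives were narrower peaks left out, lists of equal length or equal bases, peaks joined over 1 kb, other window widths, other start sites and other call thresholds.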

Additional observations from a re-analysis of the deposited data

Results flagged for a closer look

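H3K4me1 in the widened Hoxa cluster moved in opposite directions in the EPSC states, with 81.8 kb in the ESC list, 91.2 kb in the D-EPSC list and 80.2 kb in the L-EPSC list, so that D-EPSCs differed from ESCs by 9.43 kb and L-EPSCs by -1.58 kb. In the gene part of Hoxa both EPSC states were above ESCs, with 58.0 kb, 65.2 kb and 59.1 kb, so the opposite direction came from the flanks. The same held for Hoxd11, a gene of the limb and the sacral skeleton, with 5.81 kb, 7.40 kb and 3.75 kb, which are differences of 1.59 kb and -2.06 kb. Each state had 1 list, and neither difference between the EPSC states was tested.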

How the results depend on the processing

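No paired analysis was possible because each group has 1 peak list, which carries no replicate number. Of 36 covered-base totals of the clusters 31 stayed within 1.5 times the reported value. With lists of equal covered bases, ESC H3K27ac was 16.3 kb and the log2 ratios of H3K27ac were -2.20 for D-EPSCs and -0.21 for L-EPSCs over ESCs, and that of H3K4me1 in D-EPSCs over ESCs turned to 0.10. With clusters not widened, D-EPSC H3K27ac was 1.66 kb, with log2 ratios of -4.21 over ESCs and, for L-EPSCs over D-EPSCs, 2.64. With 100 kb, H3K27ac was 81.8 kb, 27.1 kb and 36.9 kb in ESCs, D-EPSCs and L-EPSCs, with log2 ratios of -1.59 and 0.45 for the same comparisons.

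Hox genes with ESC H3K27ac in the widened span fell from 9 to 4 with peaks of at least 500 bp, lists of equal length or at least 500 covered bases, and to 2 with equal covered bases. In D-EPSCs 3 had a peak with 5 kb of widening, and in L-EPSCs 3 without widening. Those with ESC H3K27ac within 1 kb were 2, 2 and 1 with peaks of at least 500 bp, equal length and equal bases, and 1 in L-EPSCs with peaks of at least 500 bp. The first base lay under ESC H3K27ac for 2 genes with peaks joined and 1 at the start of any transcript. The counts of first bases under H3K4me1 stayed within 1.5 times under every alternative run.

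Of 108 counts of called genes 24 moved by over 1.5 times. With equal covered bases, H3K4me1 was lower in 0 and higher in 10 genes in D-EPSCs against ESCs, lower in 4 and higher in 9 in L-EPSCs against ESCs, and lower in 3 in L-EPSCs against D-EPSCs, and H3K27ac was lower in 2 in each EPSC state. Without gene widening H3K4me1 was higher in 6 in D-EPSCs, and lower in 5 and higher in 6 in L-EPSCs, and H3K27ac was higher in 0 in D-EPSCs. With 5 kb H3K4me1 was lower in 2 in D-EPSCs against ESCs and in 2 in L-EPSCs against D-EPSCs, and H3K27ac higher in 3 in D-EPSCs. With 1.5 times H3K4me1 was lower in 8 and higher in 4 in D-EPSCs and lower in 9 in L-EPSCs against D-EPSCs, and with 3 times it was lower in 0, 3 and 0 in D-EPSCs against ESCs, L-EPSCs against ESCs and L-EPSCs against D-EPSCs, and higher in 0 in L-EPSCs. With peaks joined H3K4me1 was higher in 1 in D-EPSCs, and with a floor of 1 base H3K27ac was lower in 8 in each EPSC state. The direction of the H3K4me1 calls against ESCs thus turned with equal covered bases and without gene widening, and lists of equal length moved none of these calls. Read depth is unknown, and its part in the list lengths was not tested.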
